A study of Mus musculus with 12 samples.

Results

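A set of 9 genes was followed across early T cell development in mouse embryos: Bcl6, its close relative Bcl6b, and 7 genes for corepressor proteins, which are Bcor, Ncor1, Ctbp1, Mta3, Hdac1, Hdac2 and Hdac3. They were chosen by name from the 24421 genes measured, with earlier results of these data known, and all 9 were present. RNA was sequenced from thymocytes of C57BL/6 embryos of the genotype Rag1KOBcl6fl/flLckCre- (control) or Rag1KOBcl6fl/flLckCre+ (KO), so control and KO embryos alike lacked Rag1 and carried loxP-flanked Bcl6 alleles, and they differed in the Lck-driven Cre that acts in the T lineage. Most labels put the embryos at E16.5, and the protocol for the treatment at E17.5. Of the 3 sorted populations, the earliest was CD25+ cells from thymi that had no stimulation (CD25), and the others were CD4-CD8+ immature single-positive (ISP) and CD4+CD8+ double-positive (DP) cells from thymi kept on filters for 2 days with 1 µg/ml of anti-CD3, an antibody that stands in for the pre-T cell receptor signal which Rag1-deficient thymocytes cannot receive. Each of the 6 combinations of population and genotype had 2 libraries, 12 in all. Nothing in the labels tells if both libraries of a group are from different embryos, or if ISP and DP cells were taken from the same thymi, so p-values measure only the spread between these samples, which may be technical.

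BCL6 is a zinc finger repressor that sits on DNA and silences genes through the proteins it recruits. Its BTB domain binds NCOR1 and BCOR in one shared groove, NCOR1 brings the deacetylase HDAC3, and BCOR brings a Polycomb complex. MTA3 belongs to the NuRD complex, whose deacetylases are HDAC1 and HDAC2, and CTBP1 is a further corepressor that works with the CoREST complex. In the thymus, Bcl6 is known to be switched on when thymocytes pass the pre-T cell receptor checkpoint, and elsewhere it is best known as the master factor of germinal centres and of follicular helper T cells. BCL6 also represses its own gene in B cells.

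Bcl6 lies on the minus strand of chromosome 16, from 23965052 to 23988852 in GRCm38. A pair of RefSeq start sites of the gene were at hand, and the 250 bases before each are printed because Bcl6 was the member whose level moved most in this series and because the known self-repression acts near its start. Capitals mark every match to TTCNNNGAA, the form bound by STAT factors, which includes TTCCTNGAA, the core of the site bound by BCL6. Both strands were searched, and so was GCGNGGGCG, the core bound by EGR factors. The sequences are from RefSeq (GRCm38.p6), minus strand, 5′ to 3′.
Bcl6 upstream window, chr16:23988853-23989102: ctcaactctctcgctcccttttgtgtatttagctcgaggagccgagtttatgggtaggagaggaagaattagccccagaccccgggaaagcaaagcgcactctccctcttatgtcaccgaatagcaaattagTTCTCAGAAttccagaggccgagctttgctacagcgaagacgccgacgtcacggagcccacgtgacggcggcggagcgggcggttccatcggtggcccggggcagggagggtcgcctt
Bcl6 downstream window, chr16:23981284-23981533: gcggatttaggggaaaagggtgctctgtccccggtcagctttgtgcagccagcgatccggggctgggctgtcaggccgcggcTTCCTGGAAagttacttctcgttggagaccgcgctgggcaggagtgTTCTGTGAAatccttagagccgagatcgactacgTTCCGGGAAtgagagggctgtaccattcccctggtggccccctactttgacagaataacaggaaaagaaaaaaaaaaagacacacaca

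The upstream window ends at the 5′ end of the annotated gene and holds 1 STAT-type match, TTCTCAGAA, 118 bases before the start. The downstream window falls in an intron of the gene as GENCODE M21 draws it and holds 3 STAT-type matches. TTCCTGGAA, 168 bases before that start, is also a match to the BCL6 core, and TTCTGTGAA and TTCCGGGAA follow at 122 and 88 bases. Of 32817 RefSeq windows of the same 250 bases, 1.31% held TTCCTNGAA, 7.015% held TTCNNNGAA and 4.702% held GCGNGGGCG. RefSeq windows were found for 5 of the 9 genes. Among the other 4, both overlapping Bcor windows held the same STAT-type match and Ctbp1 an EGR-type match, and no BCL6 core was found. A match describes letters in a window, and binding was not measured here.

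The values are RPKM, reads scaled by gene length and by a divisor for each library, as the authors deposited them. Levels of different genes can thus be set side by side per length. Each library held 9658180 to 14228715 reads, as recovered from the values, and 10241 to 10568 genes reached 1 RPKM. These reads were 96.4% to 101.9% of the divisor, which was thus not the read total itself. Over 11989 genes detected in every library, median ratios to the gene's mean departed from a common level by at most 2.24e-08%. Medians over all genes therefore cannot show a shift of the whole table. The sorting markers followed the titles. Il2ra, which encodes CD25, was at 537.6 RPKM or more in the 4 CD25 libraries and at 44.7 or less elsewhere. Cd4 ranged from 13.9 to 20.5 RPKM in libraries titled ISP and from 190.6 to 344.1 in those titled DP, where it was lower in KO libraries (220 ± 41.7 against 341 ± 4.27, SD, n = 2 each; limma adjusted p = 0.0253), as was Il2ra (17.8 ± 4.64 against 28.6 ± 6.11; limma adjusted p = 0.0127). In ISP cells Il2ra was higher in KO libraries, 43.3 and 44.7 against 29.9 and 24.2 RPKM. Cd8b1 was lower in KO libraries, 520 to 554 against 703 to 715 in ISP and 2042 to 2274 against 2495 to 2506 in DP cells. Cd8a was also lower, 230 to 232 against 269 to 302 in ISP and 774 to 800 against 857 to 873 in DP cells. No sorting marker was called between genotypes in ISP cells. For 6 of the 8 anti-CD3 libraries, however, the title and the sequencing library name disagree: 4 differ in population and 4 in genotype. By name, all 4 libraries titled ISP are control and all 4 titled DP are KO, so a KO comparison by name sets libraries titled DP against libraries titled ISP. Titles set the groups below. CD25 cells were neither stimulated nor cultured, so population and treatment cannot be told apart in comparisons with them.

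Bcl6 was low in CD25 cells, intermediate in ISP cells and high in DP cells. In CD25 cells the 2 control libraries had 1.82 and 1.49 RPKM and the 2 KO libraries 2.01 and 1.63, from 57 to 86 reads each. ISP controls had 11.9 and 11.6, and ISP KO libraries 18.9 and 25.1. DP controls had 72.5 and 70.0, and DP KO libraries 87.7 and 111.3. No library of one population overlapped with one of another, and within ISP and within DP both KO libraries lay above both controls, whereas in CD25 cells the genotypes overlapped. Counting error was small beside these steps: the exact 95% Poisson interval of the lowest library, with 57 reads, ran from 1.13 to 1.93 RPKM, and that of the highest, with 3476 reads, from 107.6 to 115.0. It covers counting error only.

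**Figure D1:**
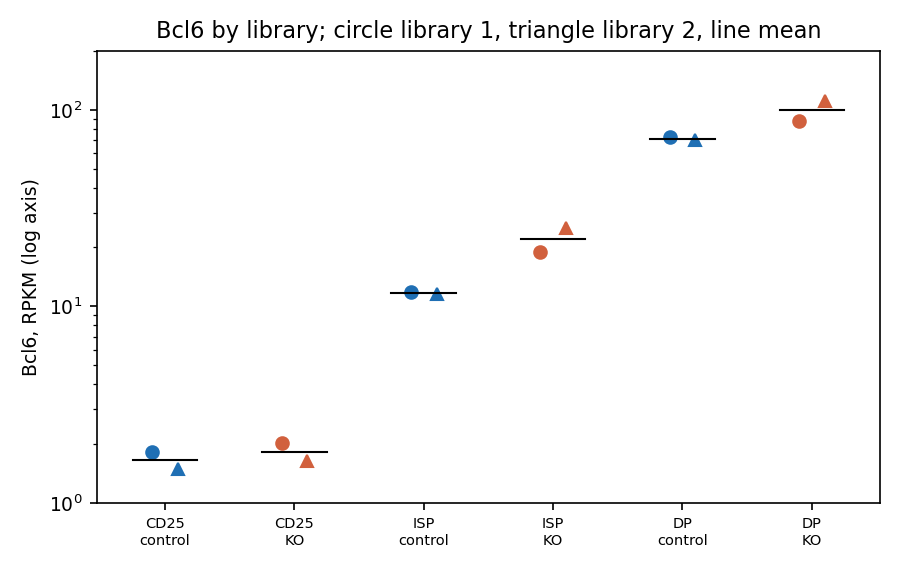
Bcl6 level in RPKM on a log axis for the 12 libraries in 6 groups; circles are library 1, triangles library 2, blue control, orange KO, and black lines the mean of 2 libraries. The highest CD25 library is at 2.01, the ISP range is 11.6 to 25.1, and the lowest DP library is at 70.0.

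Between populations, the mean of Bcl6 was 1.74 ± 0.227 RPKM in CD25, 16.9 ± 6.46 in ISP and 85.4 ± 19.0 in DP libraries (SD, n = 4 each). The difference of log2(RPKM + 1) was 2.64 for ISP minus CD25 (SE 0.10, limma adjusted p = 5.84e-10) and 2.32 for DP minus ISP (SE 0.10, limma adjusted p = 1.27e-09). This scale adds 1 to every value and so understates the change of low genes, Bcl6 in CD25 cells among them. In these sorted bulk samples, fewer cells that express a gene and less of its RNA per cell cannot be told apart. Both steps were called under every alternative that kept the titles. Grouped by library name, DP minus ISP was -0.16 for Bcl6 (limma adjusted p = 1), with no gene of the whole table called.

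The mean level of Bcl6 was not lower in KO than in control libraries in any population. In CD25 cells the difference between KO and control was 0.09 (SE 0.16, 95% interval -0.30 to 0.47, limma adjusted p = 0.919). In ISP cells Bcl6 was higher in KO libraries, 22.0 ± 4.39 against 11.7 ± 0.187 RPKM (SD, n = 2 each), a difference of 0.84 (SE 0.14, limma adjusted p = 0.0249). In DP cells it was also higher, 99.5 ± 16.6 against 71.2 ± 1.80 RPKM (SD, n = 2 each), a difference of 0.47 (SE 0.14, limma adjusted p = 0.0319). The values are for the whole gene and were not split by exon, so they check nothing about the deletion. Which exons the loxP sites flank was not stated in the labels. Gm37419, annotated on the opposite strand, overlaps an exon of Bcl6 near its 5′ end and was not analysed here.

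Both calls of Bcl6 between genotypes ended when single libraries were left out. In ISP cells the limma adjusted p was 0.0916 without control 1, 0.156 without control 2 and 0.208 without KO 2, where the difference was 0.65. In DP cells it was 0.104 without control 1, 0.138 without control 2 and 0.276 without KO 2, where the difference was 0.30. Without a filter on low genes the adjusted p was 0.152 in ISP and 0.0858 in DP. The DP value was 0.0515 at a pseudocount of 0.1 and 0.0656 after quantile normalization. Grouped by library name, the differences were 2.30 in ISP and 2.34 in DP, which are the differences between libraries titled DP and ISP. Whether the KO effect itself differed between populations was tested as an interaction: it was 0.76 larger in ISP than in CD25 cells (unadjusted p = 0.00233, limma adjusted p = 0.266) and 0.37 smaller in DP than in ISP cells on the same log2 scale (difference -0.37, limma adjusted p = 0.294), and neither passed.

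Transcripts of natural killer (NK) and innate lymphoid cells moved with population in the same libraries. Of 5 such markers, Ncr1, Klrb1c, Klrd1 and Tyrobp rose from CD25 to ISP and Nkg7 fell, and all 5 fell from ISP to DP. Ncr1, an NK cell receptor, was at 8.89 ± 1.65 RPKM in ISP libraries (SD, n = 4) and at 0.844 or less in every CD25 and DP library. Klrd1, another receptor of these cells, was at 16.0 to 29.6 RPKM in ISP libraries and at 1.59 or less in every CD25 and DP library. The summed level of the 5 markers was lowest in DP libraries, at 18.4 to 30.9 RPKM, beside 209 to 306 in those of ISP and 228 to 284 in those of CD25 cells, most of it Nkg7 in the CD25 libraries. Of the endothelial and thymic epithelial markers, Cdh5, Kdr, Tek, Emcn, Foxn1, Krt5 and Psmb11 were at 0.118 RPKM or less in every library. Krt8 was low, with a maximum of 1.01 RPKM. Epcam and Pecam1 were well above these levels and moved with population. Every CD25 library had between 107.7 and 119.8 RPKM of Epcam, while the stimulated libraries had no less than 13.8 and no more than 21.8. Pecam1 reached 32.8 to 44.2 RPKM in DP libraries and stayed between 20.3 and 26.4 elsewhere. The part of NK and innate lymphoid cells in the differences between ISP and the other populations was not tested, for Bcl6 or for the other members.

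Transcripts of 3 of 5 myeloid markers, Lyz2, Csf1r and Adgre1, moved with genotype in the same libraries. The summed level of 5 myeloid markers (Lyz2, Csf1r, Itgam, Cd68 and Adgre1) was 9.50 to 10.5 RPKM in ISP control and 31.6 to 50.9 in ISP KO libraries, 12.8 to 18.9 in DP control and 51.2 to 76.2 in DP KO libraries, and in CD25 cells 18.4 to 24.7 against 33.4 to 37.0. Lyz2 made up most of the sum in 10 of the 12 libraries, with 3.65 of 9.50 RPKM in ISP control 2 and 5.50 of 12.8 in DP control 2, while Csf1r stayed at or below 2.23 RPKM and Adgre1 at or below 1.62 in every library. Of the 5 markers, 1 was called higher in ISP KO and 3 in DP KO libraries, where 0.257% and 14.1% of all genes were. In CD25 cells 0 of the 4 tested were called, where 0.0188% of all genes were. Itgam and Cd68 overlapped between genotypes in ISP and DP cells. In DP cells Itgam was at 1.89 to 2.29 RPKM in control and 1.42 to 2.06 in KO libraries, and Cd68 at 3.28 to 4.66 and 3.87 to 5.82. In CD25 cells Cd68 overlapped too, while Itgam was higher in KO libraries. Of the B lineage, Pax5, its defining transcription factor, was at 0 in all 12 libraries. Of the other lists, Tyrobp and Epcam were called higher and Pecam1 lower in DP KO libraries, where 14.1% of all genes were higher and 7.78% lower. The part of other cell types in the differences between genotypes was not tested, for Bcl6, for Ncor1 or for the genes of the lists given further on.

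Bcl6b, which encodes a BCL6-like repressor with a similar zinc finger region, was all but absent. The gene lies on chromosome 11 (70224128 to 70229798, minus strand, GRCm38). It had 2 reads in CD25 control library 2, 4 and 1 in the 2 ISP control libraries and 1 in DP KO library 2, which is 0.0502, 0.0828, 0.0250 and 0.0307 RPKM, and was at 0 in the other 8 libraries. For a count of 0 a floor of 3 reads was set, or 0.0610 to 0.0832 RPKM in those 8 libraries. The exact 95% Poisson interval, as used for Bcl6, reaches higher there, to between 0.0750 and 0.102 RPKM. Both cover counting error only. Bcl6b did not reach the filter of 1 RPKM in 2 libraries and was not tested. Only in ISP cells did the genotypes not overlap, with 4 and 1 reads in control and 0 in both KO libraries. Counts this low cannot separate the groups.

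At the deposited scaling by length, the order of the members changed between populations. In CD25 cells, Hdac2 (183 ± 10.2 RPKM, SD, n = 4) was highest, followed by Hdac1, then Ctbp1 and Hdac3, whose libraries overlapped, then Mta3, Ncor1, Bcor, Bcl6 and Bcl6b. In ISP cells no neighbours in the order overlapped, Ncor1 was above Mta3, and Bcl6 was above Bcor. In DP cells, Hdac2 (157 ± 5.67), Ctbp1 (156 ± 13.9) and Hdac1 (154 ± 7.07) overlapped at the top, Hdac3 (93.2 ± 5.31) overlapped with Bcl6 (85.4 ± 19.0), and Ncor1, Mta3, Bcor and Bcl6b followed without overlap. The ratio of Bcl6 to Ncor1 was 0.0435 to 0.0626 in CD25 libraries, 0.278 to 0.729 in ISP libraries, then 1.12 to 2.29 in DP libraries. At that scaling Bcl6 thus lay below Ncor1 in all 8 CD25 and ISP libraries and above it in all 4 DP libraries. The ratio of Bcl6 to Bcor ran from 0.270 to 0.343 in CD25 libraries but from 7.40 to 16.0 in those of DP cells.

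**Figure D2:**
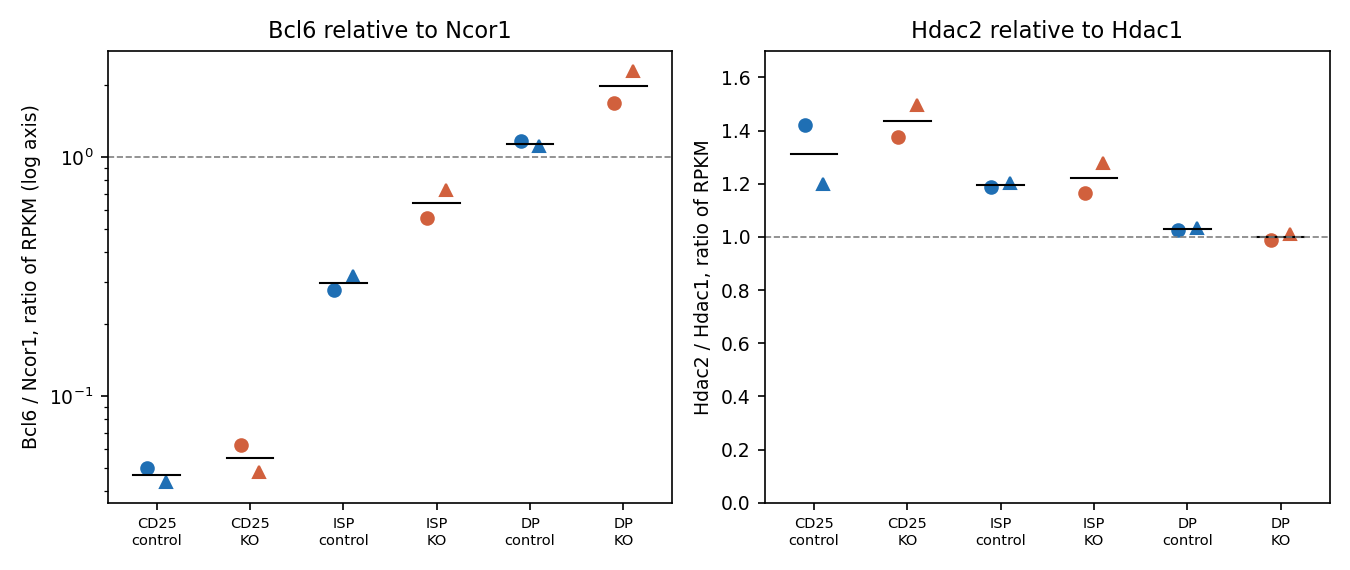
Left, ratio of the RPKM of Bcl6 to that of Ncor1 on a log axis, and right, of Hdac2 to Hdac1 on a linear axis, for the 12 libraries in 6 groups; circles are library 1, triangles library 2, blue control, orange KO, black lines group means, and the dashed line equal levels. At the deposited scaling by length, Bcl6 exceeds Ncor1 in the 4 DP libraries only, and Hdac2 and Hdac1 are at nearly equal levels there, with ratios from 0.990 to 1.03.

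Ncor1 encodes the large scaffold that BCL6 uses to reach HDAC3. It stood at 36.7 and 34.3 RPKM in CD25 controls, 32.1 and 34.1 in CD25 KO libraries, at 42.6 and 36.5 in ISP controls, 34.1 and 34.5 in ISP KO libraries, and at 62.2 and 62.7 in DP controls, 51.9 and 48.6 in DP KO libraries. The DP libraries were all above the others, and in each population both KO libraries lay below both controls. Ncor1 rose from ISP to DP (difference 0.59, SE 0.05, limma adjusted p = 8.97e-07), while ISP minus CD25 was 0.10 (limma adjusted p = 0.128), and 0.153 and called without ISP control 2 (limma adjusted p = 0.0243). It fell in DP KO cells, by 0.31 on the log2 scale (SE 0.08, limma adjusted p = 0.0151), and this call ended without DP control 1 (0.0704), without DP control 2 (0.0762) and without DP KO 2 (0.113).

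In ISP KO cells the Ncor1 difference was -0.20 (unadjusted p = 0.0247, limma adjusted p = 0.293) and in CD25 KO cells -0.10 (limma adjusted p = 0.749). Grouped by library name, the Ncor1 difference between KO and control was positive, 0.62 in ISP and 0.56 in DP. Ncor1 lies on chromosome 11 (62316426 to 62458541, minus strand), where exons of Ttc19 and Pigl on the opposite strand touch its ends. Whether the counting used strand is not given in the sources used here. Ttc19 and Pigl reached at most 8.78 and 10.8 RPKM.

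Bcor encodes the corepressor that links BCL6 to Polycomb repressive complex 1.1, and lies on chromosome X (12036740 to 12160355, minus strand). It was the least abundant corepressor gene in every population, at 6.48 and 5.53 RPKM in CD25 controls, 5.86 and 5.47 in CD25 KO libraries. ISP control libraries had 9.29 and 11.3 RPKM and ISP KO libraries 9.67 and 9.96. DP control libraries had 9.02 and 9.45 RPKM and DP KO libraries 7.54 and 6.98. All ISP and DP libraries were above all CD25 libraries, and the DP KO libraries were the lowest of the stimulated ones.

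Bcor rose from CD25 to ISP (difference 0.69, SE 0.08, limma adjusted p = 8.13e-06) and fell from ISP to DP, by 0.26 on the log2 scale (SE 0.08, limma adjusted p = 0.00922). The second step was not called among control libraries alone (difference -0.13, limma adjusted p = 0.363). In DP cells KO minus control was -0.31 (SE 0.11, limma adjusted p = 0.0632), short of the threshold, and it passed with equal read totals (0.0483) and with voom on the recovered reads (0.0293).

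**Figure D3:**
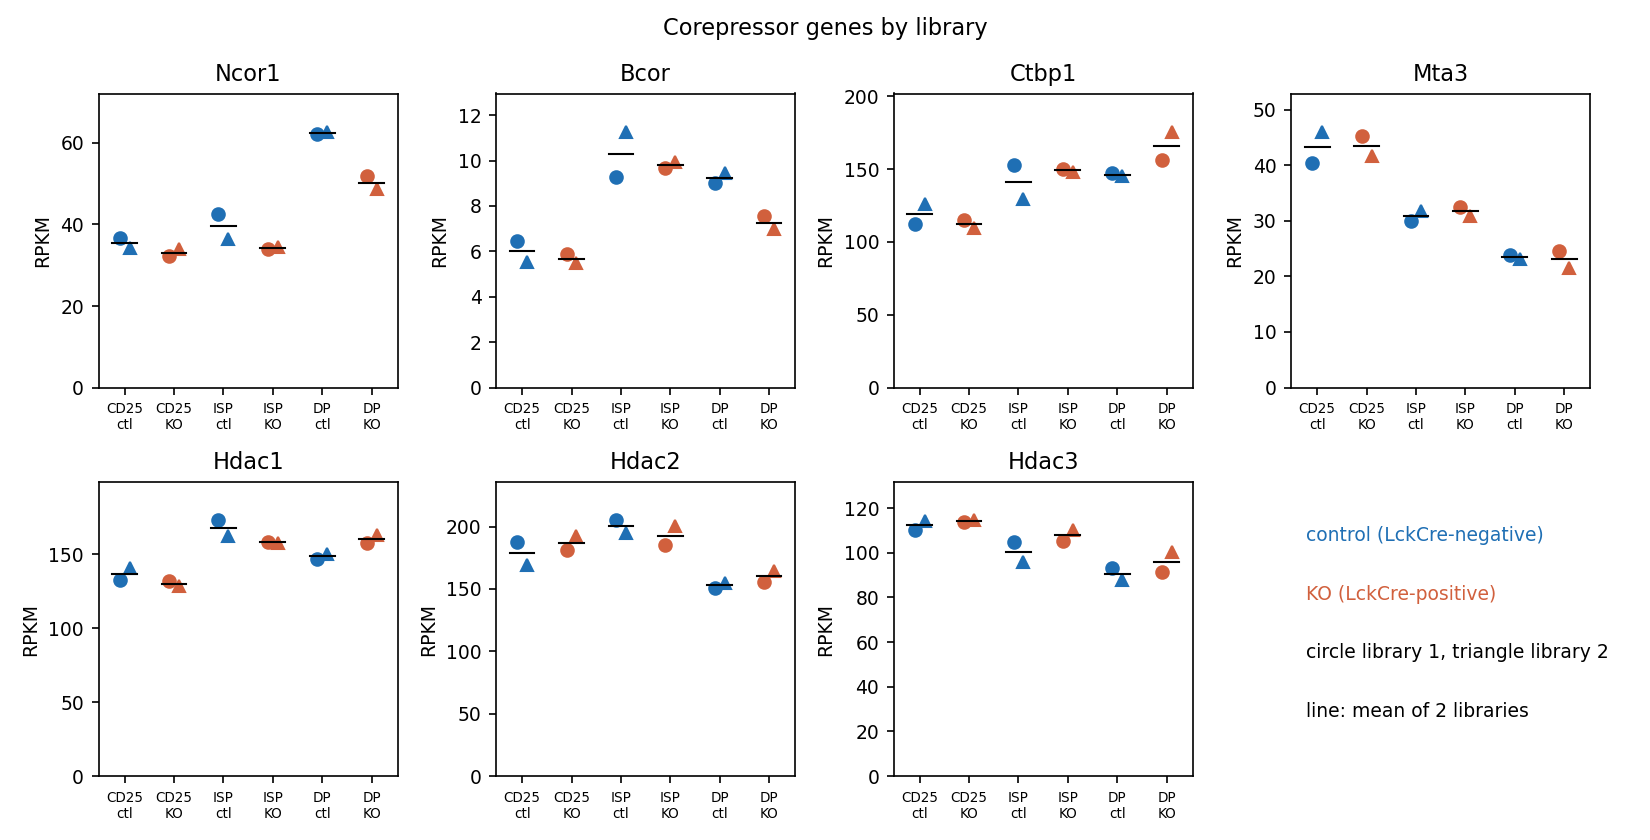
Levels in RPKM, on axes from 0, of the 7 corepressor genes in the 12 libraries; circles are library 1, triangles library 2, blue control (ctl), orange KO, and black lines the mean of 2 libraries. Ncor1 is highest in DP control libraries (62.2 and 62.7), Mta3 steps down from CD25 to DP, and Bcor is lowest in CD25.

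Mta3 encodes the NuRD subunit through which BCL6 is known to repress plasma cell genes in B cells, and lies on chromosome 17 (83706163 to 83821516, plus strand). It stood at 40.4 and 46.0 RPKM in CD25 controls, 45.3 and 41.6 in CD25 KO libraries, at 30.0 and 31.8 in ISP controls, 32.5 and 30.9 in ISP KO libraries, and at 23.9 and 23.2 in DP controls, 24.6 and 21.6 in DP KO libraries. The populations did not overlap and the genotypes overlapped in each. Mta3 fell by 0.46 on the log2 scale from CD25 to ISP (SE 0.06, limma adjusted p = 3.14e-05) and by 0.41 from ISP to DP (SE 0.06, limma adjusted p = 5.75e-05), the opposite direction to Bcl6 at both steps. KO minus control was between -0.03 and 0.04 in the 3 populations, with 95% intervals that reached from -0.215 in DP to 0.222 in ISP cells.

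Ctbp1 encodes a corepressor that also senses NADH, and lies on chromosome 5 (33247723 to 33274994, minus strand). CD25 libraries had 112 and 126 RPKM in control and 115 and 109.8 in KO. ISP libraries had 153 and 129 in control and 150.1 and 148 in KO, and DP libraries 147 and 145 in control and 156 and 176 in KO. Every ISP and DP library was above every CD25 library. Ctbp1 rose from CD25 to ISP (difference 0.32, SE 0.06, limma adjusted p = 0.000478). DP minus ISP was 0.10 (limma adjusted p = 0.144), and it was called without ISP control 1 (0.163, limma adjusted p = 0.025) and after quantile normalization (0.298, limma adjusted p = 0.000246). In DP cells the 2 KO libraries were above the controls, with a difference of 0.18 (95% interval -0.00421 to 0.37, limma adjusted p = 0.150).

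Hdac1 and Hdac2 encode closely related class I deacetylases that share the NuRD, CoREST and SIN3 complexes. They lie on chromosome 4 (129516104 to 129542713, minus strand) and chromosome 10 (36974544 to 37001889, plus strand). Hdac1 stood at 132 and 141 RPKM in CD25 controls, 132 and 129 in CD25 KO libraries, at 173 and 162 in ISP controls, 159 and 157 in ISP KO libraries, and at 147 and 150.1 in DP controls, 157 and 163 in DP KO libraries. It was lowest in CD25 cells, and in CD25 and ISP cells both KO libraries were below the controls, while in DP cells both were above. Hdac1 rose from CD25 to ISP (difference 0.29, SE 0.04, limma adjusted p = 4.79e-05). DP minus ISP was -0.08 (limma adjusted p = 0.10), was called at -0.17 among controls alone (limma adjusted p = 0.0388), and was called in the other direction, at 0.13, after quantile normalization (limma adjusted p = 0.0057).

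Hdac2 stood at 188 and 169 RPKM in CD25 controls, 181 and 192 in CD25 KO libraries, at 205 and 195 in ISP controls, 185 and 201 in ISP KO libraries, and at 151 and 155 in DP controls, 156 and 164 in DP KO libraries. All DP libraries were below all others. Hdac2 fell by 0.33 on the log2 scale from ISP to DP (SE 0.05, limma adjusted p = 6.24e-05), by 0.10 and short of the threshold after quantile normalization (limma adjusted p = 0.0876). Hdac2 over Hdac1 was 1.20 to 1.50 in CD25, 1.17 to 1.28 in ISP, then 0.990 to 1.03 in DP libraries, so the DP libraries were below all the others whichever the genotype. A ratio shows unequal levels of the 2 genes and not which of them moved. A similar copy of a gene can share reads, and how the authors counted such reads is not given in the sources used here.

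Hdac3 encodes the deacetylase of the NCOR1 complex, and lies on chromosome 18 (37935844 to 37955016, minus strand). It stood at 110.3 and 114 RPKM in CD25 controls, 114 and 114.5 in CD25 KO libraries, at 105 and 95.8 in ISP controls, 105 and 110.3 in ISP KO libraries, and at 93.0 and 87.9 in DP controls, 91.4 and 100.5 in DP KO libraries. The DP libraries lay below all the CD25 libraries. Hdac3 fell by 0.28 from CD25 to DP on the log2 scale (SE 0.05, limma adjusted p = 0.000148), in 2 small steps of -0.12 (limma adjusted p = 0.0365) and -0.16 (limma adjusted p = 0.00958). The step from CD25 to ISP was lost without CD25 control 2 (0.0870), CD25 KO 1 (0.0746), CD25 KO 2 (0.0852), ISP control 2 (0.141) or ISP KO 1 (0.117), among control libraries alone (0.0757), among KO libraries alone (0.311) and among those whose title and library name give 1 population (0.0529). The step from ISP to DP was lost after quantile normalization (-0.04, 0.477), among controls alone (0.0874), among KO libraries alone (0.0535) and among those of matching population (0.0527), and it was 0.0012 when grouped by library name.

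Between populations most members were called, as were most genes of the whole table. From CD25 to ISP, 6 of the 8 tested members were called, 4 higher and 2 lower (Mta3 and Hdac3), where 63.9% of the 11303 genes tested were called (33.1% higher, 30.9% lower). From ISP to DP, 6 of 8 were called, 2 higher (Bcl6 and Ncor1) and 4 lower (Bcor, Mta3, Hdac2 and Hdac3), where 70.6% of all genes were (35.6% higher, 35% lower). Between CD25 and DP all 8 were called, 5 higher and 3 lower (Mta3, Hdac2 and Hdac3), where 75.7% of all genes were (37.3% higher, 38.4% lower). Hdac1, 1 of the 5, was at 0.12 and not called among control libraries alone (limma adjusted p = 0.117). Scaled to the total of recovered reads, 3191 genes were higher and 4094 lower from CD25 to ISP, beside 3739 and 3489. The median difference of the members was 0.20, -0.12 and 0.32 for these 3 comparisons, beside 0.01, 0.01 and -0.01 over all genes. The scaling of the table itself keeps the medians over all genes small.

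Between genotypes, 0, 1 and 2 of the 8 tested members were called in the CD25, ISP and DP populations. In CD25 cells 0 of 8 tested members were called by limma, where 0.0188% of 10636 genes were; none had an unadjusted p under 0.05, and voom also called 0. In ISP cells 1 member was called, Bcl6, where 0.354% of all genes were (0.257% higher, 0.0973% lower). In DP cells 2 were called, Bcl6 higher and Ncor1 lower, where 21.9% of all genes were (14.1% higher, 7.78% lower), which is 1597 and 879 genes, beside 1201 and 991 after quantile normalization. The median member difference was -0.03 in CD25, -0.01 in ISP and 0.07 in DP cells, beside 0.01, -0.01 and 0.00 over all genes, again kept small by the scaling. Libraries of the 2 genotypes did not overlap for 2, 4 and 6 of the 8 members in CD25, ISP and DP cells, where 40.2%, 45.2% and 62.3% of all genes did not.

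The interaction tests called 0 of 8 members. For ISP against CD25 cells limma called 0% of all genes, with 1105 of 11303 at an unadjusted p under 0.05, and limma voom called 19; of the members, 1 (Bcl6) had an unadjusted p under 0.05 and voom called 0. For DP against ISP cells limma called 4.19% of all genes, and voom called 0 members. Hdac1 was the 1 member with an unadjusted limma p under 0.05 there (difference 0.19, limma adjusted p = 0.189).

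**Figure D4:**
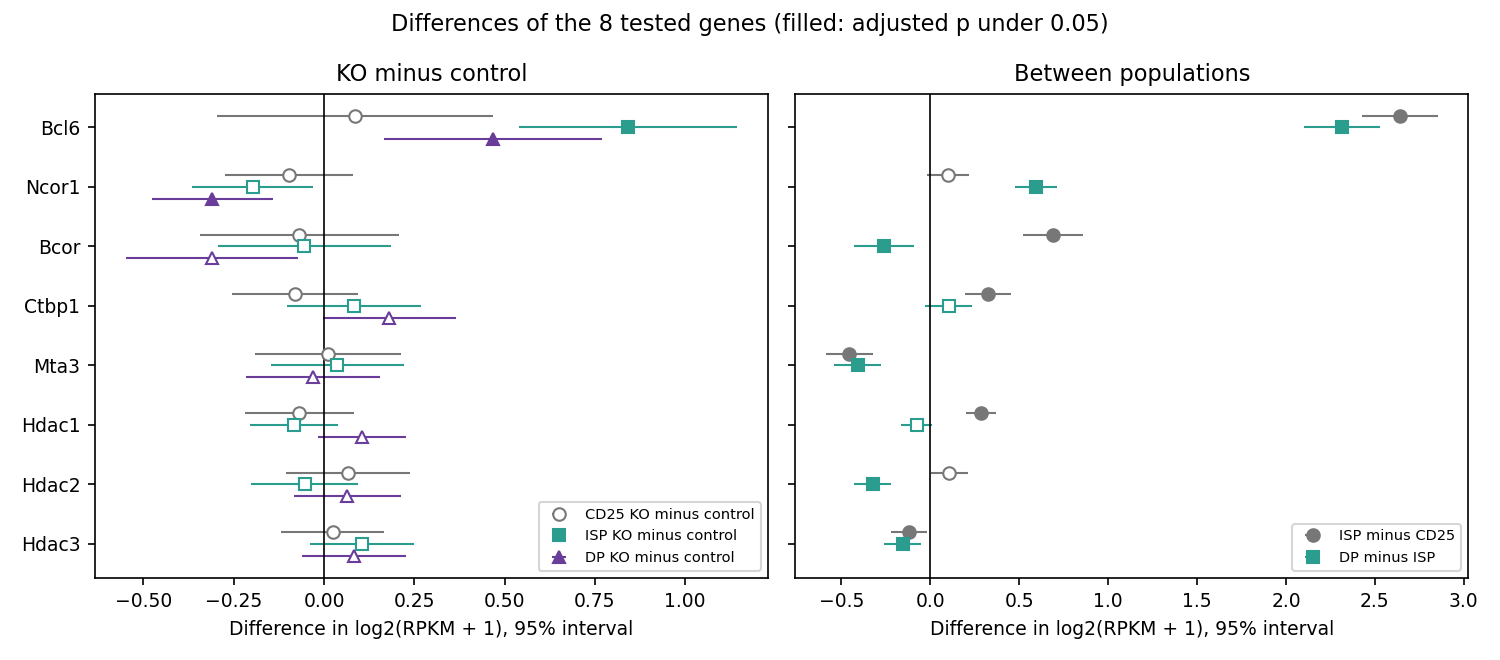
Differences of log2(RPKM + 1) with 95% intervals from limma for the 8 tested members, between genotypes within each population (left) and between populations (right); filled symbols have an adjusted p under 0.05. Bcl6 in ISP and DP and Ncor1 in DP are the filled symbols on the left, and on the right Bcl6 lies at 2.64 and 2.32 while every other member is between -0.46 and 0.69.

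The partners of these proteins were read from lists of other subunits. Like the members, these and the later lists were chosen with earlier results of these data known. Of the 5 further genes of the NCoR and SMRT complex, 2 rose and 2 fell from CD25 to ISP, where 63.9% of all genes were called, and 3 rose and 1 fell from ISP to DP, where 70.6% were. These shares are the background for the same steps in each list that follows. Coro2a, an actin-binding subunit, fell at both steps, with 28.4 ± 0.611 RPKM in CD25, 11.7 ± 3.38 in ISP, then 2.34 ± 0.310 in DP libraries (SD, n = 4 each; limma adjusted p = 3.93e-08 and 8.36e-10). Gps2, a small inhibitory subunit, rose from 73.9 ± 7.94 to 121 ± 5.64 RPKM from CD25 to ISP (limma adjusted p = 1.55e-06). Coro2a was also the 1 gene of this list called between genotypes in ISP cells, at 14.7 ± 0.0580 RPKM in KO and 8.84 ± 0.650 in control libraries (SD, n = 2 each; difference 0.67, limma adjusted p = 0.0218), a call lost without any 1 of the 4 ISP libraries (0.0682 to 0.159). Of all genes, 0.354% were called between genotypes in ISP cells. The median difference of the list from CD25 to ISP was -0.01 and from ISP to DP 0.20.

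Of 10 further genes of the NuRD complex, 8 rose and 0 fell from CD25 to ISP, and 3 rose and 5 fell from ISP to DP, with medians of 0.22 and -0.23, beside 33.1% and 30.9% of all genes higher and lower at the first step and 35.6% and 35% at the second. Rbbp4, a histone-binding subunit, rose from 188 ± 8.05 to 245 ± 11.8 RPKM at the first step (limma adjusted p = 1.24e-05). Its relative Rbbp7 fell from 308 ± 13.6 RPKM in ISP to 157 ± 24.3 in DP libraries (SD, n = 4 each; limma adjusted p = 7.95e-09). In DP cells 4 of the 10 were higher in KO libraries and none lower, with a median of 0.02, where 14.1% of all genes were higher and 7.78% lower: Rbbp4 by 0.30 (limma adjusted p = 0.00658), Rbbp7 by 0.34 (0.00764), Mta1, a relative of Mta3, by 0.37 (0.0398) and Mbd3, a methyl-CpG-binding domain protein, by 0.29 (0.0471). Rbbp4 was called without each DP library in turn but not after quantile normalization (0.13, limma adjusted p = 0.146). Rbbp7 lost its call without DP control 1 (0.0788) or DP KO 2 (0.0742), and Mta1 and Mbd3 theirs without any 1 of the 4 DP libraries (0.0655 to 0.199 and 0.0764 to 0.215).

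The other histone deacetylases made a list of 8 genes, of which Hdac9 was too low to test. From CD25 to ISP, 3 rose and 4 fell (median -0.15), and from ISP to DP 5 rose and 2 fell (median 0.30). Hdac4, a class IIa enzyme that shuttles between nucleus and cytoplasm, fell from 123 ± 22.1 to 26.4 ± 3.53 RPKM from CD25 to ISP (limma adjusted p = 3.04e-09), while Hdac5, of the same class, rose from 0.236 ± 0.144 to 4.43 ± 0.344 RPKM (limma adjusted p = 6.9e-09). Hdac7, the class IIa enzyme known from thymocytes, rose from 58.7 ± 5.01 RPKM in ISP to 114 ± 14.2 in DP libraries (SD, n = 4 each; limma adjusted p = 1.52e-08).

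Between genotypes in DP cells, 3 of the 7 tested enzymes of that list were called, beside 21.9% of all genes. Hdac4 was higher in KO libraries (23.3 ± 1.26 against 13.4 ± 1.16 RPKM, SD, n = 2 each; difference 0.75, limma adjusted p = 0.00349). Hdac10 was lower (9.17 ± 0.924 against 15.5 ± 1.08; difference -0.70, limma adjusted p = 0.0034), and so was Hdac7 (102 ± 4.54 against 126 ± 0.156; difference -0.31, limma adjusted p = 0.0162). Hdac4 and Hdac10 were called without each DP library in turn, and Hdac7 lost its call without control 1 (0.0776), control 2 (0.0765) or KO 2 (0.118) of the DP libraries.

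Of 7 further genes of the CtBP, CoREST and SIN3 complexes, 4 rose and 0 fell from CD25 to ISP (median 0.43), and 2 rose and 2 fell from ISP to DP (median 0.00). Sin3b, a SIN3 scaffold, rose from 77.3 ± 7.50 RPKM in ISP to 112 ± 6.27 in DP libraries (SD, n = 4 each; limma adjusted p = 2.03e-07). In DP cells 21.9% of all genes were called between genotypes, which is the background for this list and for the next. Of this list 1 gene was called, Sap30, a SIN3 subunit, which was higher in KO libraries by 0.51 (limma adjusted p = 0.00164). With each DP library left out in turn, its difference ran from 0.43 to 0.59. Of 10 further genes of the BCOR Polycomb complex, 4 rose and 3 fell at each of the 2 steps, with medians of 0.06 and 0.10. Skp1a alone was called in DP cells between genotypes (0.22, limma adjusted p = 0.0444), and this was lost without any 1 of the 4 DP libraries (0.0715 to 0.274) and after quantile normalization (0.05, 0.569).

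Among 16 genes known to act on Bcl6 transcription or on the BCL6 protein, 14 were tested. From CD25 to ISP, 5 rose and 3 fell (median 0.14), and from ISP to DP 6 rose and 3 fell (median 0.07). Foxo1, a transcription factor of this list, rose at both steps, with 6.05 ± 0.178 RPKM in CD25, 14.8 ± 2.34 in ISP, then 28.2 ± 2.81 in DP libraries (SD, n = 4 each; limma adjusted p = 2.06e-08 and 1.17e-07). Id3, an inhibitor of E proteins, rose from 5.66 ± 1.53 to 202 ± 10.5 RPKM from CD25 to ISP (limma adjusted p = 2.77e-12). Stat5b, which carries cytokine signals that lower Bcl6 in helper T cells, rose from 56.0 ± 2.32 RPKM in ISP to 92.4 ± 9.99 in DP libraries (limma adjusted p = 7.49e-08).

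In DP cells 4 of these 14 were called lower in KO libraries and none higher, with a median of -0.18, where 7.78% of all genes were lower and 14.1% higher. The list mixes activators of Bcl6 with carriers of signals that lower it. The part of these genes in the level of Bcl6 was not tested. Stat3, an activator of Bcl6, was at 48.8 ± 1.21 RPKM against 65.0 ± 2.06 in controls (SD, n = 2 each; difference -0.40, limma adjusted p = 0.00226). Tcf7, an activator of Bcl6 and of T lineage genes, differed by -0.30 (limma adjusted p = 0.00658), Stat5a by -0.24 (0.0195) and Stat5b by -0.23 (0.0320). Stat3 was called without each DP library in turn. Tcf7 was lost without DP control 2 (0.0568), and Stat5a and Stat5b were lost without control 1, control 2 or KO 2 of the DP libraries (0.0560 to 0.153 and 0.0992 to 0.265).

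Genes reported elsewhere as repressed by BCL6 were the last list, with 22 genes of which 20 were tested. From CD25 to ISP 12 rose and 6 fell, and from ISP to DP 3 rose and 16 fell, with medians of 0.59 and -0.92, beside 33.1% of all genes higher and 30.9% lower at the first step, and 35.6% and 35% at the second. Il7r, the interleukin-7 receptor chain, fell from 11.0 ± 3.64 RPKM in ISP to 0.795 ± 0.269 in DP libraries (SD, n = 4 each; limma adjusted p = 1.3e-09). In ISP cells 1 was called between genotypes, the chemokine gene Ccl3, at 3.84 ± 0.798 RPKM in KO and 1.06 ± 0.350 in control libraries (SD, n = 2 each; difference 1.24, limma adjusted p = 0.0433), lost without any 1 of the 4 ISP libraries (0.0617 to 0.327). Of all genes, 0.354% were called between genotypes in ISP cells. In DP cells 6 of the list were higher in KO libraries and 1 lower, with a median of 0.12, where 14.1% and 7.78% of all genes were.

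The smallest p-values of that list in DP cells were those of Ccnd2 and Chek1. Ccnd2, which encodes cyclin D2, was at 16.0 ± 1.49 RPKM in KO and 3.90 ± 0.700 in control libraries (SD, n = 2 each; difference 1.80, limma adjusted p = 3.03e-05). Chek1, a checkpoint kinase, was at 16.3 ± 1.19 and 9.61 ± 0.294 RPKM (difference 0.70, limma adjusted p = 0.000779). Klf2, a factor for thymocyte exit and quiescence, was the gene that was lower, at 2.00 ± 1.27 and 4.70 ± 0.945 RPKM (difference -0.98, limma adjusted p = 0.011), and its call was lost without DP control 2 (0.0860) or DP KO 2 (0.0824), where the difference was -0.54. Ccnd2 and Chek1 were called without each DP library in turn.

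Over all 7 lists, the 72 tested genes beside the members had 20 calls between genotypes in DP cells (13 higher, 7 lower). Of all genes, 21.9% were called there (14.1% higher, 7.78% lower). In ISP cells 2 of the 72 were called (2 higher), where 0.354% of all genes were. In CD25 cells 0 of 64 tested were called, where 0.0188% of all genes were. The genes whose pattern was most like that of Bcl6 over the 12 libraries were, by Pearson's r of log2(RPKM + 1), Sat1 (0.992), Fmnl1 (0.990), Aars2 (0.989), Gpr162 (0.989) and Glcci1 (0.989), out of 8557 candidates of which 9.022% had r above 0.9. This choice of 5 did not hold under other measures: 1 of them was among the first 5 by Spearman's rho, where Aars2 ranked 353 and Glcci1 185, and 1 by Pearson's r over the 6 group means. Sat1 stood at 25.8 RPKM in CD25 control and 64.1 in DP KO libraries on average. Of the members, Ctbp1 (0.885, rank 901), Ncor1 (0.795, rank 1592), Hdac1 (0.656) and Bcor (0.564) ran with Bcl6, and many other genes ran closer. Mta3 (-0.977), Hdac3 (-0.820) and Hdac2 (-0.567) ran against it. These r values are descriptions, since the 12 libraries fall into 3 populations that set most of the pattern.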

How the data were processed

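Members and gene lists were chosen with earlier results of these data known. The authors made and deposited 1 table of RPKM values per gene, a unit read here from the values, after aligning reads with BWA to GRCm38, per the submitters' processing notes. The counter, annotation, filters: not given in the sources used here. RNA was extracted with a PicoPure kit, per the labels' protocols. All 169595 values above 0 (100.0%) were whole multiples of a read within 0.02 reads, and 40 genes in ISP KO minus control were called on RPKM beside 181 with voom on those reads.

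Genes at 1 RPKM or more in 2 libraries were tested on log2(RPKM + 1) by limma with trend (limma 3.58.1, R 4.3.3). CD25 KO was fitted on its 4 libraries, the rest on all 12. Benjamini-Hochberg adjustment ran over all genes, with 0.05 as threshold. The fit was tested on simulated data. Named list genes are among those with the smallest p in a comparison, up to 4 per list. The alternatives were another pseudocount, no filter, other scalings, voom, a replicate block, libraries left out, separate fits and grouping by library name. Positions are from GENCODE M21. Tables were made with pandas 2.3.3 and numpy 2.4.6 (Python 3.11.15), plots with matplotlib 3.10.9, intervals with scipy 1.17.1.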

Additional observations from a re-analysis of the deposited data

Results flagged for a closer look

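The KO effect differed between DP and ISP cells by an interaction test for 5 of the 72 tested genes outside the members, where 4.19% of all genes were called. The difference of the log2 KO effects, DP minus ISP, was 1.33 for Ccnd2 (SE 0.19, limma adjusted p = 0.00812), called without each of the 8 ISP and DP libraries in turn. It was 0.75 for Chek1 (SE 0.14, limma adjusted p = 0.0141), lost without ISP control 2 (0.0618), ISP KO 2 (0.0616), DP control 1 (0.0502), DP control 2 (0.0520) or DP KO 2 (0.0590). It was -0.69 for Coro2a (SE 0.15, limma adjusted p = 0.0295), lost without ISP control 1 (0.0506), ISP control 2 (0.116), ISP KO 1 (0.0812), ISP KO 2 (0.0978), DP control 1 (0.111) or DP KO 2 (0.105). It was -0.44 for Stat3 (SE 0.10, limma adjusted p = 0.0282), lost without ISP control 2 (0.109), ISP KO 1 (0.105), ISP KO 2 (0.0682), DP control 1 (0.110), DP control 2 (0.0635) or DP KO 2 (0.0997). It was 0.43 for Rbbp7 (SE 0.10, limma adjusted p = 0.0417), lost without ISP control 1 (0.0623), ISP control 2 (0.152), ISP KO 1 (0.117), ISP KO 2 (0.118), DP control 1 (0.163), DP control 2 (0.0554) or DP KO 2 (0.134).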

How the results depend on the processing

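Of 1345 alternative values for the genes named here, 1155 kept direction and side of the threshold, 119 lost a call, 13 gained one and 58 changed sign. Causes were not tested unless the setting itself gives them. With 2 libraries a group, leaving 1 out leaves a lone sample that is assumed to vary like the others.

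Numbers of genes called: CD25 KO minus control had 2, and 1 at pseudocount 0.1, without a filter and after quantile normalization, 14 with voom, 9 in the fit of 12 libraries and 4 to 93 with 1 library left out. ISP KO minus control had 40, and 8 without a filter, 181 with voom and 6 to 56 with 1 left out; 1 member was called, 0 without a filter and 0 to 1 with 1 left out. DP KO minus control had 2476, and 844 to 2604 with 1 left out; 2 members were called, 1 at pseudocount 0.1, without a filter and after quantile normalization, and 0 to 2 with 1 left out. The interaction of ISP and CD25 had 0, and 1 at pseudocount 0.1, 2 without a filter, 19 with voom, 0 to 3 with 1 left out and 1 with the replicate block. That of DP and ISP had 474, and 185 without a filter, 304 after quantile normalization and 64 to 1053 with 1 left out.

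Bcl6 lost its ISP KO call without a filter (0.84), and its DP KO call at pseudocount 0.1 (0.47), without a filter (0.47) and after quantile normalization (0.36). With 1 library left out Bcl6 ran from -0.012 to 0.18 in CD25 KO, 0.65 to 1.04 in ISP KO and 0.30 to 0.64 in DP KO. Differences near 0 that changed sign with 1 left out, none of them called, were Bcor in CD25 KO (-0.17 to 0.029) and ISP KO (-0.18 to 0.072), Ncor1 in the ISP and CD25 interaction (-0.21 to 0.0075), Hdac2 in CD25 KO (-0.0097 to 0.14) and ISP KO (-0.11 to 0.0053), Hdac3 in CD25 KO (-0.00081 to 0.049), Ctbp1 in CD25 KO (-0.16 to 0.00018) and ISP KO (-0.038 to 0.20), and Mta3 in CD25 KO (-0.080 to 0.10), ISP KO (-0.0032 to 0.077) and DP KO (-0.12 to 0.059). After quantile normalization Hdac1 was at -0.056 in DP KO and 0.13 in DP minus ISP, Hdac2 at -0.10 in DP KO and -0.080 in ISP minus CD25, and Hdac3 at -0.026 in DP KO. In KO libraries alone Hdac1 was at 0.018 in DP minus ISP.

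Grouped by library name, which swaps populations and genotypes as described, ISP KO minus control called 5502 genes and 4 members, DP KO minus control 5622 and 4, DP minus ISP 0 and 0, the ISP and CD25 interaction 3372 and 4, and the DP and ISP interaction 0 genes. In ISP KO, values were 0.62 for Ncor1, -0.13 for Hdac3, -0.47 for Mta3, -1.98 for Coro2a and -0.86 for Ccl3. In DP KO they were 0.56 for Ncor1, -0.12 for Hdac1, -0.34 for Hdac2, -0.19 for Hdac3, -0.41 for Rbbp4, -1.03 for Rbbp7, -0.69 for Mta1, -0.55 for Mbd3, -0.53 for Hdac4, 0.94 for Hdac7, 0.80 for Hdac10, -0.75 for Sap30, -0.083 for Skp1a, 0.42 for Stat3, 0.075 for Stat5a, 0.75 for Stat5b, 0.53 for Tcf7, -1.71 for Ccnd2 and -1.23 for Chek1. In DP minus ISP they were -0.16 for Bcl6, 0.0059 for Hdac1, 0.0012 for Hdac3, 0.054 for Mta3, 0.15 for Coro2a and -0.075 for Foxo1, and in ISP minus CD25 -0.036 for Hdac2. In the ISP and CD25 interaction they were 2.21 for Bcl6 and 0.72 for Ncor1, and in that of DP and ISP 0.037 for Bcl6, 0.17 for Bcor, -0.090 for Hdac1, 0.17 for Coro2a, -0.11 for Rbbp7 and -0.0068 for Chek1.

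Correlations of same-numbered deviations between groups ran from -0.0658 to 0.125, the largest between ISP control and DP control. Equal replicate numbers in the titles need not mean shared thymi, so these values cannot exclude pairing. With the replicate number as a block, Bcl6 stayed called in ISP KO (0.84, limma adjusted p = 0.0397) and DP KO (0.47, 0.0392), Hdac2 became called in ISP minus CD25 (0.11, 0.0454), and 42 and 2503 genes were called in ISP and DP KO.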
